A study of Mus musculus with 7 samples.

Results

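Collagens are the main structural proteins of the connective tissue that wraps muscle fibres, and their chains are encoded by a gene family whose symbols have the form Col, a type number, the letter a and a chain number. All gene symbols of that form in the deposited table were taken, which gave 42 collagen chain genes among 29869 genes. They were measured by RNA sequencing of whole soleus, a calf muscle with many slow, oxidative fibres, of mice aged 60 days. Each of the 7 animals was mdx, a Dmd mutant without dystrophin that serves as a model of Duchenne muscular dystrophy. In the labels, 3 animals also carried Runx1f/f, floxed alleles of the transcription factor gene Runx1, and 4 were mdx alone. The series is titled as a search for Runx1-responsive genes in mdx muscle, and the comparison is that of mdx/Runx1f/f with mdx. The labels give no Cre driver and no sex, and they do not say which part of Runx1 was floxed.

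Groups were taken from the sample titles. The description field ties most animal numbers to another sample, and the design text counts 4 mdx/Runx1f/f and 3 mdx muscles, the reverse of the titles. Runx1 itself had 52.8, 52.1 and 33.9 CPM in the libraries labelled mdx/Runx1f/f, against 15.5, 15.4, 13.3 and 11.5 CPM in those labelled mdx (CPM, counts scaled to a common library size). Its log2 fold change was 1.74 (SE 0.18, adjusted p = 0.00795 by edgeR's quasi-likelihood test), so the transcript was higher in the group whose label names the floxed gene. Gene-level counts also cover exons outside any deleted part and so do not check the deletion. All directions below rest on the titles. Libraries held 16218306 to 20847902 counts.

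Collagens share a triple helix built from 3 chains, each a long repeat with glycine at regular steps. Fibrillar collagens (types I, II, III, V, XI, XXIV and XXVII) pack into the fibrils that bear load, with types I and III the bulk of muscle connective tissue. Basement membrane collagens form the sheet against each muscle fibre and blood vessel: type IV builds its network, and types XV and XVIII, the multiplexins, lie at its border. Network-forming types include type VI, whose beaded filaments link the basement membrane to the fibrils around it, type VII of anchoring fibrils, and types VIII and X. Associated types sit on fibril surfaces (the FACIT group, among them types XII, XIV, XVI and XXII) or span the cell membrane (XIII, XVII, XXIII and XXV). Types XX, XIX, IX and XXVIII were counted among the associated types too.

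Collagen transcripts made up a larger share of the libraries labelled mdx/Runx1f/f. All 42 genes together took 0.986%, 1.29% and 1.26% of the counts in those libraries, against 0.468%, 0.557%, 0.363% and 0.653% in the libraries labelled mdx. The groups did not overlap, and the ratio of the mean shares was 2.31. The fibrillar genes took 0.848% ± 0.132 (SD, n = 3) in the libraries labelled mdx/Runx1f/f and 0.303% ± 0.0738 (SD, n = 4) in those labelled mdx. Network genes took 0.144% ± 0.0185 (SD, n = 3) in mdx/Runx1f/f and 0.0589% ± 0.0122 (SD, n = 4) in mdx. Associated genes took 0.0385% ± 0.00858 (SD, n = 3) in mdx/Runx1f/f and 0.0169% ± 0.00347 (SD, n = 4) in mdx. Basement membrane genes took 0.148% ± 0.0369 (SD, n = 3) in mdx/Runx1f/f and 0.131% ± 0.0602 (SD, n = 4) in mdx, and here the groups overlapped. In whole muscle, a change in the number of cells of a type and a change in RNA per cell cannot be told apart.

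**Figure D1:**
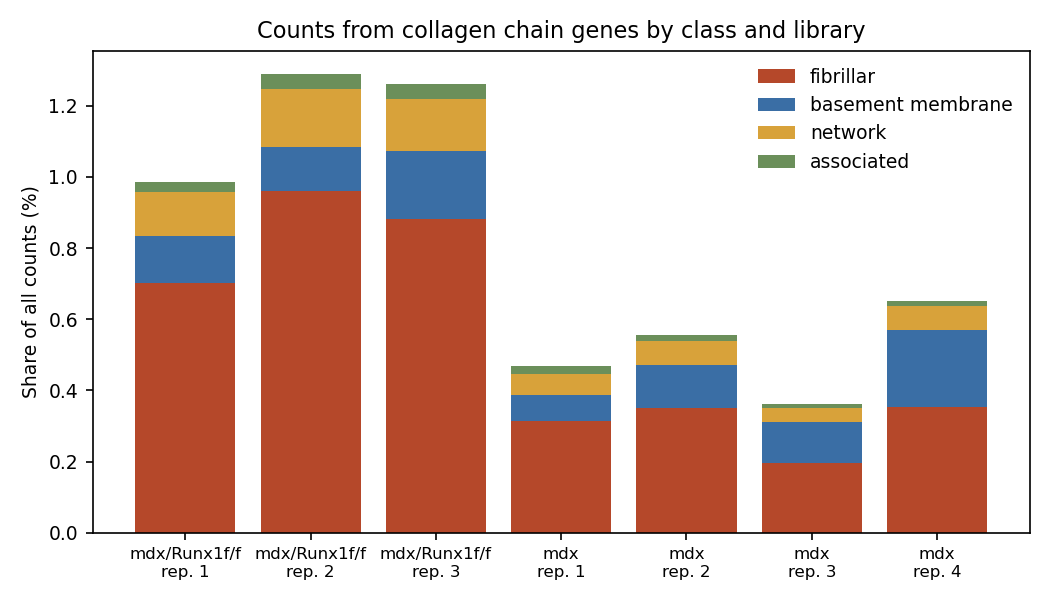
Share of all counts (%, vertical axis) taken by the 42 collagen chain genes in each library, stacked by class, with the 3 libraries labelled mdx/Runx1f/f left of the 4 labelled mdx. The fibrillar part is 0.703% to 0.960% in the mdx/Runx1f/f bars and 0.196% to 0.353% in the mdx bars, while the basement membrane part spans 0.125% to 0.191% in the mdx/Runx1f/f bars and 0.0734% to 0.216% in the mdx bars.

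Of the 42 genes, 35 passed the filter on low counts and were tested among 14033 genes. A gene was called where edgeR's quasi-likelihood p, adjusted after Benjamini and Hochberg, was under 0.05. By that rule 12 of the 35 rose in the libraries labelled mdx/Runx1f/f and 0 fell. Across all tested genes 5.10% rose and 1.85% fell under the same rule. At an unadjusted p below 0.05 edgeR gave 17 higher and 0 lower, against 17.1% and 12.4% of all tested genes. DESeq2 called 14 higher and 0 lower (10.6% and 6.45% of all), and limma-voom 12 higher and 0 lower (5.24% and 2.05% of all). The log2 fold change was positive in 31 and negative in 4 of the 35, against 49.8% and 50.2% of all tested genes. The median log2 fold change was 0.98 over the 35 genes and -0.0016 over all tested genes. The 12 genes changed by 2.17-fold to 3.81-fold. They were Col1a1, Col1a2, Col3a1, Col5a1 and Col5a2 of 11 tested fibrillar genes, Col6a1, Col6a2, Col6a3 and Col8a1 of 7 network genes, Col14a1 and Col16a1 of 10 associated genes, and Col18a1 of 7 basement membrane genes. The libraries labelled mdx/Runx1f/f lay wholly above those labelled mdx in 14 of the 35 and wholly below in 0, against 14.4% and 12.8% of all tested genes. Without mdx/Runx1f/f replicate 2, 7 of the 12 were called and Col1a1, Col1a2, Col8a1, Col16a1 and Col18a1 were not. Col17a1 and Col19a1 reached the filter's level in fewer than 3 libraries labelled mdx and passed only with the help of those labelled mdx/Runx1f/f. Neither is among the 12, but Col17a1 is among the 14 and among the 17 above. Without this pair, 13 of 33 collagen genes lay wholly above and 16 had an unadjusted edgeR p below 0.05, against 13.7% and 16.1% of all genes at that level in 3 libraries labelled mdx. Of the 33, 29 had a positive log2 fold change, against 6387 of 13353 genes at that level. The medians were 0.98 and -0.02.

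**Figure D2:**
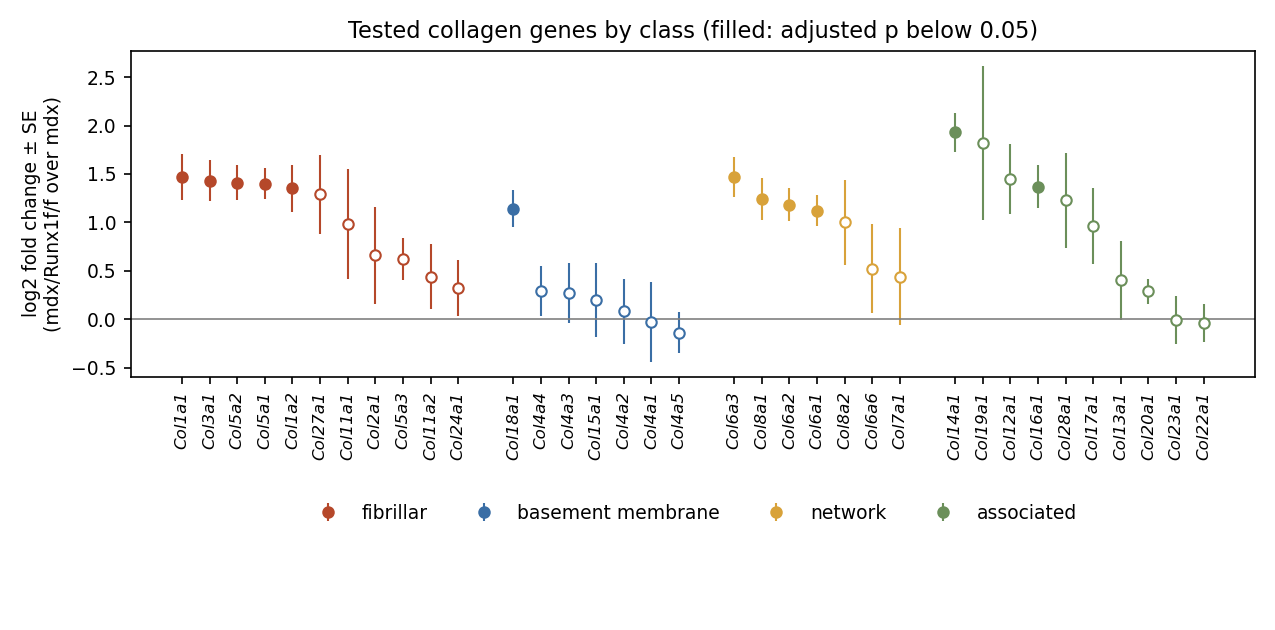
Log2 fold change (mdx/Runx1f/f over mdx, vertical axis) with its standard error for the 35 tested collagen genes, grouped by class and ordered within a class. Filled points are the 12 genes with an adjusted p below 0.05 and open points the other 23. Values run from -0.14 for Col4a5 to 1.93 for Col14a1.

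The chains of the major fibrils rose together. Col3a1, the only chain of type III collagen, had 2737, 3041 and 3417 CPM in the libraries labelled mdx/Runx1f/f, against 964, 1287, 873 and 1434 CPM in those labelled mdx. The lowest library labelled mdx/Runx1f/f stood well above the highest labelled mdx. Its log2 fold change was 1.43 (SE 0.21, adjusted p = 0.0157 by edgeR). Col1a1 encodes the alpha 1 chain of type I collagen, the most abundant collagen of tendon and scar. It had 1577, 2044 and 2043 CPM in the libraries labelled mdx/Runx1f/f, against 739, 731, 419 and 833 CPM in those labelled mdx (log2 fold change 1.47, SE 0.24, adjusted p = 0.0187 by edgeR). Col1a2, its partner chain in type I, had 1879, 2423 and 2291 CPM in the mdx/Runx1f/f libraries, against 986, 979, 534 and 941 CPM in the mdx libraries (1.35, SE 0.24, adjusted p = 0.0218 by edgeR). For either type I gene the groups were apart, with replicate 1 the lowest of the libraries labelled mdx/Runx1f/f and replicate 3 the lowest of those labelled mdx. The same libraries were the lowest of their groups in all 12 called collagen genes, so these are not 12 independent results. Without mdx/Runx1f/f replicate 2 the edgeR adjusted p was 0.0610 for Col1a1 and 0.0673 for Col1a2, and without mdx replicate 4 that of Col1a2 was 0.0535.

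Type V collagen is a minor fibrillar type that sits inside type I fibrils and limits their width. Col5a1, its alpha 1 chain, had 304, 381 and 352 CPM in the libraries labelled mdx/Runx1f/f, against 116, 153, 107 and 148 CPM in those labelled mdx (log2 fold change 1.40, SE 0.16, adjusted p = 0.00842 by edgeR). Col5a2, the alpha 2 chain, had 324, 448 and 440 CPM in the libraries labelled mdx/Runx1f/f, against 165, 178, 112 and 152 CPM in those labelled mdx (1.41, SE 0.18, adjusted p = 0.0114 by edgeR). Neither gene overlapped between groups, and both were called in each of the 7 fits that leave out a library. The alpha 3 chain gene Col5a3 had 116, 158 and 196 CPM in the libraries labelled mdx/Runx1f/f, against 76.5, 96.3, 105 and 130 CPM in those labelled mdx. Its groups overlapped and it was not called (log2 fold change 0.62, SE 0.22, adjusted p = 0.111 by edgeR).

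The other fibrillar genes were low and none was called. Col27a1, a fibrillar type known from cartilage, had 3.15, 2.61 and 1.6 CPM in the libraries labelled mdx/Runx1f/f, against 1.74, 0.825, 0.498 and 0.955 CPM in those labelled mdx (log2 fold change 1.29, SE 0.41, adjusted p = 0.0890 by edgeR). The groups overlapped by 1 library on either side. It was called by DESeq2 (adjusted p = 0.0399) and without mdx replicate 1 (adjusted p = 0.0471 by edgeR). It was not called by limma-voom (adjusted p = 0.0735), nor without mdx/Runx1f/f replicates 1 or 2 (adjusted p = 0.185 and 0.225 by edgeR). Col11a1 and Col11a2, chains of the cartilage fibril type XI, had log2 fold changes of 0.98 (adjusted p = 0.282 by edgeR) and 0.44 (adjusted p = 0.423 by edgeR). Col2a1, the main cartilage collagen, averaged 3.00 ± 1.16 CPM (SD, n = 3) in the libraries labelled mdx/Runx1f/f and 1.89 ± 0.972 CPM (SD, n = 4) in those labelled mdx. Col24a1 had a log2 fold change of 0.32 (adjusted p = 0.479 by edgeR).

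**Figure D3:**
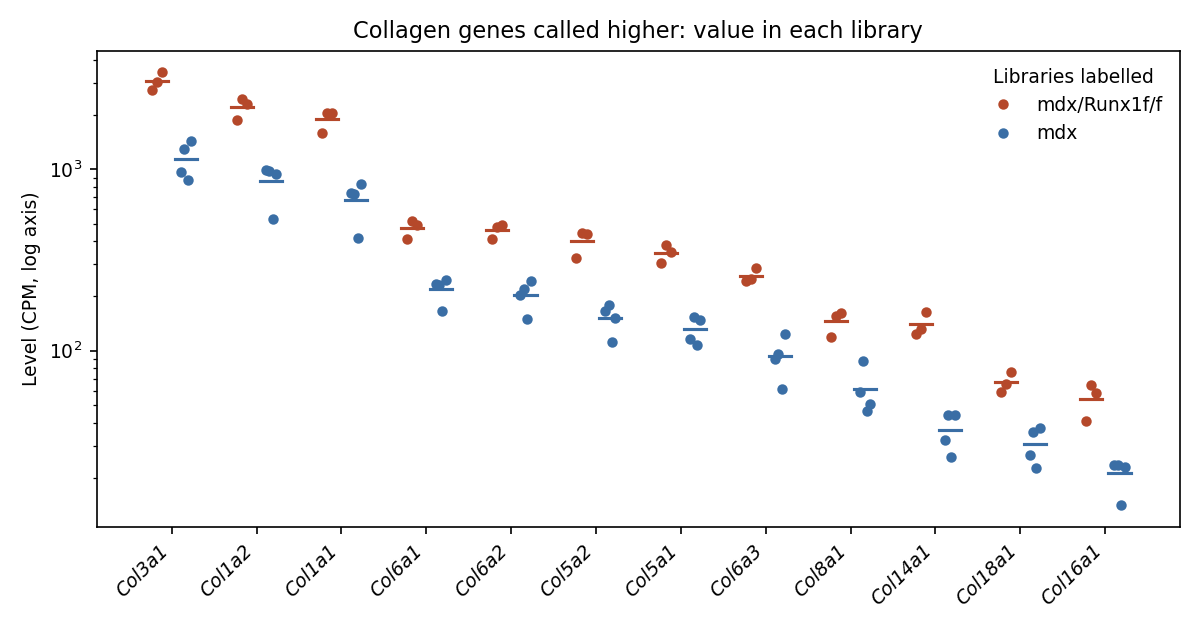
Level of the 12 collagen genes called higher (CPM, log axis), each point a library and each bar a group mean, with the 3 libraries labelled mdx/Runx1f/f left of the 4 labelled mdx. In each of the 12 genes the points of both groups are apart, from Col3a1 at means of 3065 CPM in mdx/Runx1f/f and 1140 CPM in mdx to Col16a1 at 54.5 CPM in mdx/Runx1f/f and 21.1 CPM in mdx.

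Per length the order of levels was led by the same major fibrillar chains. Dividing by the length of all annotated exons, Col3a1 stood at 312 CPM per kb in the libraries labelled mdx/Runx1f/f and 116 CPM per kb in those labelled mdx. Col1a1 followed at 288 CPM per kb in mdx/Runx1f/f and 104 in mdx, and Col1a2 at 177 in mdx/Runx1f/f and 69.2 in mdx. Col6a1 was at 108 CPM per kb in mdx/Runx1f/f and 50.0 in mdx, and Col4a1 at 86.8 in mdx/Runx1f/f and 88.6 in mdx. By this measure Col4a1 stood above Col1a2 and below Col1a1 in the libraries labelled mdx, and below both type I chains in those labelled mdx/Runx1f/f. Its place above Col1a2 rests on the lengths used, 12.4 kb for Col1a2 and 7.46 kb for Col4a1. Before division the mdx means were 860 CPM for Col1a2 and 662 CPM for Col4a1. The lengths pool the exons of all annotated transcripts and can exceed that of any single transcript. Col5a1 and Col5a2 were close to each other, at 40.7 and 42.1 CPM per kb in the libraries labelled mdx/Runx1f/f, and at 15.4 and 15.8 CPM per kb in those labelled mdx. The lengths come from GENCODE M21 and the authors' annotation is not given in the sources used here, so these levels are approximate.

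Type VI collagen is the network type whose loss causes the Ullrich and Bethlem muscle diseases, and its 3 main chains rose. Col6a1 had 411, 519 and 493 CPM in the libraries labelled mdx/Runx1f/f, against 233, 231, 166 and 246 CPM in those labelled mdx (log2 fold change 1.12, SE 0.16, adjusted p = 0.0145 by edgeR). Col6a2 had 411, 479 and 492 CPM in the libraries labelled mdx/Runx1f/f, against 202, 219, 150 and 242 CPM in those labelled mdx (1.18, SE 0.17, adjusted p = 0.0144 by edgeR). Their partner Col6a3 had 242, 247 and 286 CPM in the libraries labelled mdx/Runx1f/f, against 90.3, 96.5, 61.6 and 124 CPM in those labelled mdx (1.47, SE 0.21, adjusted p = 0.0145 by edgeR). In all 3 genes the groups were apart, and each was called in all 7 fits that leave out a library. The related chains were low: Col6a6 averaged 6.47 ± 2.36 CPM (SD, n = 3) in the libraries labelled mdx/Runx1f/f and 4.50 ± 2.42 CPM (SD, n = 4) in those labelled mdx. How reads that match both of the like chains Col6a4 and Col6a6 were counted is not known. Col6a4 had 3 raw counts over the libraries labelled mdx/Runx1f/f and 1 raw count over those labelled mdx, and was not tested.

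Among the other network genes, Col8a1 was called. It encodes a chain of the short-chain type VIII collagen of vessel walls. Its values were 119, 155 and 161 CPM in the libraries labelled mdx/Runx1f/f, against 59.3, 88.0, 46.4 and 51.0 CPM in those labelled mdx (log2 fold change 1.24, SE 0.22, adjusted p = 0.0239 by edgeR). The groups were apart, but the call was lost without mdx/Runx1f/f replicates 2 or 3 (adjusted p = 0.0737 and 0.0527 by edgeR) and without mdx replicates 3 or 4 (adjusted p = 0.0642 and 0.0628 by edgeR). Its partner Col8a2 had a log2 fold change of 1.00 (SE 0.44, adjusted p = 0.171 by edgeR). Col7a1, the chain of anchoring fibrils, had 41.5, 18.2 and 9.44 CPM in the libraries labelled mdx/Runx1f/f, against 11.1, 10.8, 23.8 and 22.4 CPM in those labelled mdx. The highest and the lowest of all 7 libraries both carried the label mdx/Runx1f/f (adjusted p = 0.593 by edgeR).

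The associated chain Col14a1 had the largest fold change of the 12. Col14a1 encodes a FACIT collagen of fibril surfaces in tendon and skin. It had 124, 131 and 164 CPM in the libraries labelled mdx/Runx1f/f, against 32.3, 44.1, 25.9 and 44.2 CPM in those labelled mdx. The lowest library labelled mdx/Runx1f/f was far above the highest labelled mdx, and the difference was 1.93 on the log2 scale (SE 0.20, adjusted p = 0.00795 by edgeR). Col16a1, a FACIT-related chain of fibrils in skin and cartilage, had 40.8, 64.4 and 58.4 CPM in the libraries labelled mdx/Runx1f/f, against 23.6, 23.6, 14.1 and 23 CPM in those labelled mdx (1.37, SE 0.22, adjusted p = 0.0174 by edgeR). Its groups did not overlap, and without mdx/Runx1f/f replicate 2 its edgeR adjusted p was 0.0586.

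Col12a1, a FACIT collagen of tendon and muscle matrix and a close relative of Col14a1, just missed the threshold. It had 47.0, 109 and 99.1 CPM in the libraries labelled mdx/Runx1f/f, against 39.8, 37.1, 16.2 and 31.7 CPM in those labelled mdx (log2 fold change 1.45, SE 0.36, adjusted p = 0.0518 by edgeR). The groups did not overlap, with mdx/Runx1f/f replicate 1 near the top of the other group. Without that library the edgeR adjusted p was 0.0330, and DESeq2 gave 0.00186. With any other library left out, the edgeR adjusted p of Col12a1 was 0.0587 to 0.162, and limma-voom gave 0.0592. Col22a1, which marks the junction of muscle and tendon, had 38.5, 52.7 and 67.1 CPM in the libraries labelled mdx/Runx1f/f, against 67.5, 50.1, 50.0 and 49.5 CPM in those labelled mdx. The groups overlapped throughout (log2 fold change -0.04, SE 0.20, adjusted p = 0.912 by edgeR).

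The remaining associated genes were low and not called. Col28a1, a type known from peripheral nerve, had a log2 fold change of 1.23 (adjusted p = 0.144 by edgeR), and the epithelial membrane collagen Col17a1 one of 0.96 (adjusted p = 0.151 by edgeR). Col19a1 had 5.74, 0.684 and 0.555 CPM in the libraries labelled mdx/Runx1f/f, against 0.540, 0.707, 0.560 and 0.787 CPM in those labelled mdx, so that mdx/Runx1f/f replicate 1 alone was high (adjusted p = 0.176 by edgeR). The same library had the highest level of Myh4, a fast myosin heavy chain gene, at 14148 CPM, with 3001 and 73.6 CPM in the other libraries labelled mdx/Runx1f/f and 41.9 to 506 CPM in those labelled mdx. Whether fibre type plays a part in Col19a1 was not tested. Col13a1, a membrane collagen of the neuromuscular junction, had a log2 fold change of 0.40 (adjusted p = 0.546 by edgeR). Col20a1 and Col23a1 had log2 fold changes of 0.29 and -0.01 (adjusted p = 0.183 and 0.978 by edgeR). Col9a1, Col9a2, Col9a3, Col25a1, Col10a1, Col4a6 and Col6a4 did not pass the filter, with 0 to 15 raw counts in a library.

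The basement membrane class had 1 called gene of 7 tested and a median log2 fold change of 0.20, against medians of 1.29, 1.12 and 1.09 in the fibrillar, network and associated classes. The associated median includes Col17a1 and Col19a1, with log2 fold changes of 0.96 and 1.82. Both passed the filter only with the help of the libraries labelled mdx/Runx1f/f, so that median is not a like comparison. Col4a1 and Col4a2, the paired chains of the type IV collagen found in all basement membranes, varied strongly among animals of 1 label. Col4a1 had 591, 476 and 875 CPM in the libraries labelled mdx/Runx1f/f, against 320, 574, 602 and 1151 CPM in those labelled mdx. The highest and the lowest library were both labelled mdx, and the difference was -0.03 on the log2 scale (SE 0.41, adjusted p = 0.968 by edgeR). Col4a2 had 419, 376 and 634 CPM in the libraries labelled mdx/Runx1f/f, against 254, 410, 424 and 716 CPM in those labelled mdx (0.08, SE 0.34, adjusted p = 0.900 by edgeR). Col15a1, a multiplexin of muscle and capillary basement membranes, had 193, 174 and 305 CPM in the libraries labelled mdx/Runx1f/f, against 101, 158, 194 and 326 CPM in those labelled mdx (0.20, SE 0.38, adjusted p = 0.755 by edgeR). The 3 genes placed the libraries of either label in 1 order, with replicate 3 the highest and replicate 2 the lowest of those labelled mdx/Runx1f/f, and replicate 4 the highest and replicate 1 the lowest of those labelled mdx. With standard errors of 0.34 to 0.41, the missed threshold does not show that these genes were at the same level in both groups.

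The multiplexin Col18a1, the source of the fragment endostatin, was the called gene of this class. It had 59.6, 65.5 and 76.8 CPM in the libraries labelled mdx/Runx1f/f, against 26.6, 35.8, 22.7 and 37.3 CPM in those labelled mdx (log2 fold change 1.14, SE 0.19, adjusted p = 0.0185 by edgeR). The groups did not overlap, and without mdx/Runx1f/f replicate 2 its edgeR adjusted p was 0.0577. Col4a5, Col4a3 and Col4a4, which build the type IV networks of kidney and a few other tissues, had log2 fold changes of -0.14, 0.27 and 0.29 and were not called (adjusted p = 0.680, 0.602 and 0.494 by edgeR).

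**Figure D4:**
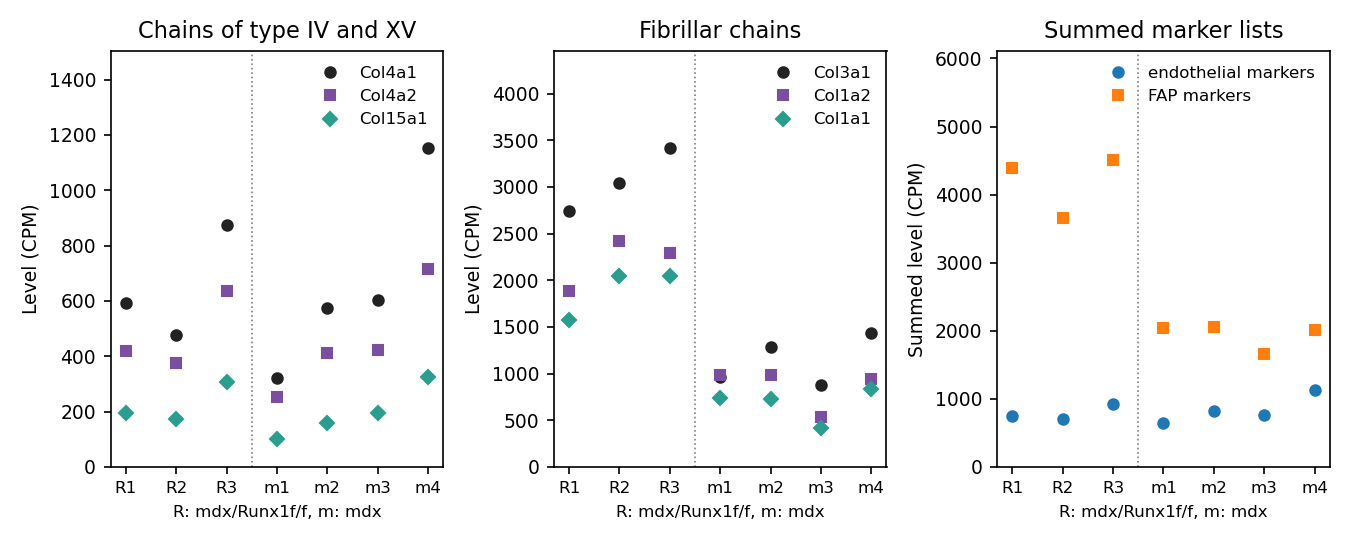
Level in each library (vertical axes, CPM, from 0) of Col4a1, Col4a2 and Col15a1, of the fibrillar chains Col3a1, Col1a2 and Col1a1, and of the summed endothelial and fibro-adipogenic progenitor (FAP) marker lists. R1 to R3 are the libraries labelled mdx/Runx1f/f and m1 to m4 those labelled mdx. Col4a1 spans 320 to 1151 CPM within the libraries labelled mdx, whereas the fibrillar chains are higher in R1 to R3 than in m1 to m4.

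Promoters were compared for the chains whose windows the RefSeq table holds, 34 of the 42 genes, as 250 bases before to 50 bases after a start on GRCm38.p6. Col4a1 and Col4a2 lie head to head: their windows, on opposite strands, share 78 bases and their starts are 21 bases apart. The strand setting is not named, so how reads over these starts were assigned is not known. Col4a1 and Col4a2 are shown beside Col3a1 and Col1a2, the most abundant risen chains with a window. Also shown are Col18a1 and Col8a1, the risen genes with a window that holds the core letters TGTGGT that Runx proteins bind. Another Col18a1 window, at chr10:77166481-77166780 (minus strand), holds no TGTGGT on either strand and is not shown. Capitals mark TGTGGT, the box with letters CCAAT, and the TATA-box letters TATAAA, each on either strand. The windows are Col4a1 at chr8:11312777-11313076 (minus strand), Col4a2 at chr8:11312555-11312854 (plus strand), Col3a1 at chr1:45311288-45311587 (plus strand), Col1a2 at chr6:4505368-4505667 (plus strand), Col18a1 at chr10:77113656-77113955 (minus strand) and Col8a1 at chr16:57754688-57754987 (minus strand).
Col4a1: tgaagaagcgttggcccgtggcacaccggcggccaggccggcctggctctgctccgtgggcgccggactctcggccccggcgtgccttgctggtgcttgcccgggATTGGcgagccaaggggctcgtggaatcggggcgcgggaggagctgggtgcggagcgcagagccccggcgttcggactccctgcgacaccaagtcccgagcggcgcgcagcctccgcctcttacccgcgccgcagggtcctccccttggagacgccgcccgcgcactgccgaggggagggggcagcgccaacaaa
Col4a2: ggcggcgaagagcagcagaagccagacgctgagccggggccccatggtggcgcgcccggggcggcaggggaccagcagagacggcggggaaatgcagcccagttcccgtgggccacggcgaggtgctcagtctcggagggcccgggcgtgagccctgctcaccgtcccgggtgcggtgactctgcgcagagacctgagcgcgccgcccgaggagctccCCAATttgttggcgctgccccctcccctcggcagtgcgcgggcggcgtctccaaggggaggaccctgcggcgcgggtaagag
Col3a1: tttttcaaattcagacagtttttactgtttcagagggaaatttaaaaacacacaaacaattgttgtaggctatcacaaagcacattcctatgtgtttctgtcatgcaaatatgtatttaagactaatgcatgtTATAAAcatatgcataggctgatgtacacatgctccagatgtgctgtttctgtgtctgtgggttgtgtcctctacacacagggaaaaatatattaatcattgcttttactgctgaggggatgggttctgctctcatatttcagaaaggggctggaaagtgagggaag
Col1a2: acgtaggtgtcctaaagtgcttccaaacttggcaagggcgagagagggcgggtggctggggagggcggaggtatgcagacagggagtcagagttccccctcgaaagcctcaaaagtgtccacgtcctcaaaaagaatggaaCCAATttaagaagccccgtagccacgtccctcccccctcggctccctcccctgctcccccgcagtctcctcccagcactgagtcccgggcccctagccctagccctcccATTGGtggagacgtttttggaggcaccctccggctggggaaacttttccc
Col18a1: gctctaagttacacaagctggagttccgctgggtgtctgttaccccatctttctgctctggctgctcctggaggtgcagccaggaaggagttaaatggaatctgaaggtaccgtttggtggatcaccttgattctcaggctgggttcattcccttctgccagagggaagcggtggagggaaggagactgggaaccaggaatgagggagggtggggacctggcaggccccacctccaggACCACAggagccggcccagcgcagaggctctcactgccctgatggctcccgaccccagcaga
Col8a1: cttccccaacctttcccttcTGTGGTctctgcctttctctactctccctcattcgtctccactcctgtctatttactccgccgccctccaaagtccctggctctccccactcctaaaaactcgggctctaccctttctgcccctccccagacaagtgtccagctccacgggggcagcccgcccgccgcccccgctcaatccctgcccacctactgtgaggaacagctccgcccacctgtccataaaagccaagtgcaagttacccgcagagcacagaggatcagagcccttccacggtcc

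TGTGGT or its reverse complement ACCACA was in 2 of the 9 risen genes with a window and in 3 of the 34 collagen genes with one, the third being Col17a1. By window it was in 8.1% of the 37 collagen windows and in 16.8% of all 32851 windows. CCAAT was in 35.1% of collagen windows and 37.4% of all windows, and TATAAA in 13.5% and 13.6%. Each motif was counted on its own, also where it shares bases with another. A match describes letters in this window and is not a binding site, and a window without one says nothing of the factor.

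The ratio of chains within a library does not depend on how libraries are scaled. Among 12 ratios compared by a two-sided exact permutation test, 0 passed an adjusted p of 0.05, and the 35 splits of 7 libraries into 3 and 4 cannot give a p below 0.0286. At that p, 7 of the 12 ratios would have to reach it before an adjusted p fell below 0.05, so the count of 0 says little. Col14a1 over Col1a1 was 0.0787, 0.0640 and 0.0803 in the libraries labelled mdx/Runx1f/f, against 0.0437, 0.0604, 0.0617 and 0.0531 in those labelled mdx (exact permutation p = 0.0286, adjusted p = 0.171). Col6a1 over Col1a1 was 0.261, 0.254 and 0.242 in the libraries labelled mdx/Runx1f/f, against 0.315, 0.316, 0.395 and 0.295 in those labelled mdx (exact permutation p = 0.0286, adjusted p = 0.171). Neither ratio overlapped between groups. Col4a1 over Col1a1 was 0.375, 0.233 and 0.428 in the libraries labelled mdx/Runx1f/f, against 0.433, 0.785, 1.44 and 1.38 in those labelled mdx (exact permutation p = 0.0571, adjusted p = 0.171). It also did not overlap, and differed by -1.44 on the log2 scale. Among chains that build 1 protein, Col1a2 over Col1a1 was 1.12 to 1.19 in the libraries labelled mdx/Runx1f/f and 1.13 to 1.34 in those labelled mdx, and Col6a2 over Col6a1 was 0.922 to 1.00 in the libraries labelled mdx/Runx1f/f and 0.867 to 0.985 in those labelled mdx (adjusted exact permutation p = 0.343 and 0.441). Col6a3 over Col6a1 was 0.475 to 0.589 in the libraries labelled mdx/Runx1f/f and 0.371 to 0.504 in those labelled mdx. That ratio differed by 0.39 on the log2 scale (exact permutation p = 0.0857, adjusted p = 0.206), and its groups overlapped. Col4a2 over Col4a1 was 0.709 to 0.789 in the libraries labelled mdx/Runx1f/f and 0.623 to 0.794 in those labelled mdx (exact permutation p = 0.400, adjusted p = 0.600), while Col4a1 itself spanned 320 to 1151 CPM.

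Enzymes and chaperones that fold collagen chains in the endoplasmic reticulum rose in part. The 17 tested genes had a median log2 fold change of 0.47. At an unadjusted p below 0.05 edgeR gave 11 higher and 0 lower, against 17.1% and 12.4% of all tested genes. By the calling rule 6 rose and 0 fell, against 5.10% and 1.85% of all. They were Plod2, a lysyl hydroxylase (1.07, adjusted p = 0.0239 by edgeR), Crtap, of the prolyl 3-hydroxylation complex (0.77, adjusted p = 0.0205 by edgeR), the prolyl 3-hydroxylase gene Leprel2 (0.79, adjusted p = 0.0306 by edgeR), the chaperone gene Fkbp10 (0.86, adjusted p = 0.0319 by edgeR), another prolyl 3-hydroxylase gene, Lepre1 (0.47, adjusted p = 0.0430 by edgeR), and Serpinh1 (0.79, adjusted p = 0.0331 by edgeR). Serpinh1 encodes the collagen chaperone Hsp47 and had 232, 286 and 260 CPM in the libraries labelled mdx/Runx1f/f, against 136, 141, 127 and 196 CPM in those labelled mdx. Single libraries moved this count: it was 0 without mdx/Runx1f/f replicate 2, and 1, 2 and 3 without mdx replicates 4, 3 and 1. Mia3 was listed at 0 in all libraries.

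Among 11 tested genes of procollagen cleavage and crosslinking, 5 rose and 0 fell (10 and 0 at an unadjusted p below 0.05), with a median of 1.04. Of all tested genes 5.10% rose and 1.85% fell by edgeR (17.1% and 12.4% at an unadjusted p below 0.05). Adamts2, which cuts the amino-terminal propeptide of fibrillar collagens, had 47.6, 49.8 and 50.6 CPM in the libraries labelled mdx/Runx1f/f, against 19.8, 20.7, 16.9 and 25.0 CPM in those labelled mdx (log2 fold change 1.26, adjusted p = 0.00795 by edgeR). Pcolce and Pcolce2, enhancers of the cut at the other end, had log2 fold changes of 1.13 and 1.26, and the lysyl oxidase genes Loxl1 and Loxl2, which crosslink collagen, 1.04 and 1.18 (adjusted p = 0.0133, 0.0105, 0.0157 and 0.0161 by edgeR). Bmp1, which encodes the carboxy-terminal proteinase, was listed at 0 in all libraries. Without mdx/Runx1f/f replicate 2, 3 of these genes were called.

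Of 11 collagen receptors and uptake genes 3 rose and 0 fell by edgeR, against 5.10% and 1.85% of all tested genes. At an unadjusted edgeR p below 0.05 there were 7 and 0, against 17.1% and 12.4% of all. Itga2 is among the 7 and passed the filter only with the help of the libraries labelled mdx/Runx1f/f, and the other 10 genes had 6 at an unadjusted p below 0.05 and a median log2 fold change of 0.87. The risen genes were Ddr2, a receptor tyrosine kinase for fibrillar collagen (log2 fold change 0.97, adjusted p = 0.0157 by edgeR), Mrc2, which takes collagen up for breakdown (1.10, adjusted p = 0.00842 by edgeR), and the anthrax toxin receptor gene Antxr2 (0.78, adjusted p = 0.0180 by edgeR). Of 8 collagen breakdown genes, Mmp8, Mmp9 and Mmp13 likewise passed only with their help and were not called. Of the other 5, all 5 had an unadjusted p below 0.05, the median was 1.28, and 3 rose by edgeR: the gelatinase gene Mmp2 (1.28, adjusted p = 0.0183 by edgeR), the cathepsin K gene Ctsk (1.42, adjusted p = 0.0119 by edgeR) and the surface protease gene Fap (0.92, adjusted p = 0.00795 by edgeR). Without mdx/Runx1f/f replicate 1, 5 of the breakdown genes were called, and without mdx replicate 3, 2 genes of either list. The 10 and the 5 genes compare with all genes at the filter's level in 3 libraries labelled mdx. Of those genes 4.9% rose and 16.1% were higher at an unadjusted edgeR p below 0.05.

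Markers of the cell types of muscle were read beside these genes. Over all tested genes 5.10% rose and 1.85% fell by edgeR (17.1% and 12.4% at an unadjusted p below 0.05). Of 12 markers of fibro-adipogenic progenitors, the main collagen-producing cells of muscle, 10 rose and 0 fell, among them Pdgfra at 92.8 ± 2.75 CPM (SD, n = 3) in the libraries labelled mdx/Runx1f/f and 44.0 ± 7.50 CPM (SD, n = 4) in those labelled mdx. Their summed level was 3650 to 4510 CPM in the libraries labelled mdx/Runx1f/f and 1660 to 2051 CPM in those labelled mdx. All 12 were higher at an unadjusted edgeR p below 0.05, with a median log2 fold change of 1.12. Of 8 tendon markers 2 rose, Comp and Tnc, with sums of 1421 to 2471 CPM in mdx/Runx1f/f against 343 to 942 CPM in those labelled mdx. Much of that sum was Thbs4, at means of 1233 CPM in mdx/Runx1f/f and 427 CPM in mdx. At an unadjusted edgeR p below 0.05, 5 were higher and 0 lower, and the median log2 fold change was 1.19. It was positive in 7 of the 8 and negative in Scx (-0.47, adjusted p = 0.239 by edgeR). None of the 8 was called without mdx/Runx1f/f replicate 2, without mdx/Runx1f/f replicate 3 or without mdx replicate 4. Only 1 was called without mdx/Runx1f/f replicate 1 or without mdx replicates 2 or 3. Of 10 macrophage markers 3 rose, C1qa, C1qb and C1qc, with sums of 790 to 2080 CPM in mdx/Runx1f/f against 187 to 787 CPM in those labelled mdx. At an unadjusted edgeR p below 0.05, 8 were higher and 0 lower. All 10 log2 fold changes were positive, with a median of 1.67. None of the 10 was called when mdx/Runx1f/f replicate 1 or 2, or any of the mdx replicates 2, 3 and 4, was left out. Without mdx replicate 1, 5 were called. Of 8 Schwann cell markers Mbp, S100b and Pmp22 rose, with sums of 228 to 249 CPM in mdx/Runx1f/f against 137 to 177 CPM in those labelled mdx. At an unadjusted edgeR p below 0.05, 6 were higher and 0 lower, and the median log2 fold change was 0.65. It was positive in 7 of the 8 and negative in Erbb3 (-0.54, adjusted p = 0.179 by edgeR). Without mdx replicate 3 none of the 8 was called, and without mdx/Runx1f/f replicate 2 or mdx replicates 2 or 4 only 1. Neither the 8 endothelial nor the 8 smooth muscle and pericyte markers held a gene called by edgeR or limma-voom (0 and 5 at an unadjusted p below 0.05, 0 and 2 by DESeq2). The endothelial sums were 752, 704 and 923 CPM in the libraries labelled mdx/Runx1f/f, against 651, 821, 762 and 1133 CPM in those labelled mdx. These sums had the same highest and lowest library in either group as Col4a1, but not every single marker did. Flt1 was highest in mdx/Runx1f/f replicate 2 and in mdx replicate 1, at 102 and 109 CPM. The smooth muscle and pericyte sums were 759 to 1136 CPM in the libraries labelled mdx/Runx1f/f and 616 to 852 CPM in those labelled mdx. Of 7 cartilage and bone markers 3 were tested (Acan only with the help of the libraries labelled mdx/Runx1f/f) and 0 called by edgeR, DESeq2 or limma-voom (0 at an unadjusted p below 0.05), with sums of 22.3 to 187 CPM in mdx/Runx1f/f and 7.84 to 199 CPM in those labelled mdx, while Matn1, Ibsp, Bglap and Sp7 were at 1.02 CPM or less in each library. Of 8 fibre genes 0 were called by edgeR (1 higher and 2 lower at an unadjusted p below 0.05, and 1 higher and 1 lower by DESeq2). Myh7, the slow myosin gene that marks soleus, was at 2329 to 7508 CPM in the libraries labelled mdx/Runx1f/f and 8027 to 15509 CPM in those labelled mdx. The part of any of these cell types in the collagen values was not tested.

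Animals numbered 358 to 363 and 373 to 375 were read separately, since the labels give no date or batch and the animal numbers fall into these separate runs. The 12 risen genes had log2 differences of 0.91 to 1.75 within the numbers 358 to 363 (2 against 2 libraries) and 1.29 to 2.28 within the numbers 373 to 375 (1 against 2). These genes were called over the same libraries, so the sign of both values is largely set by that choice. Genes that were not called had 0.31 and 0.07 for Col4a1, 0.30 and 0.20 for Col4a2, 0.54 and 0.28 for Col15a1, and -0.37 and 0.43 for Col22a1, with 358 to 363 first. Fitted alone, animals 358 to 363 gave 0 calls by edgeR over all genes, with 16 collagen genes higher and 0 lower at an unadjusted p below 0.05, against 11.8% and 7.20% of all genes tested in that fit. In the authors' deposited table, 14 of the 38 collagen genes with an adjusted p were higher at 0.05 and 0 lower, against 11.2% and 7.85% of all genes with one. These were the 12 genes named here with Col12a1 and Col27a1.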

How the data were processed

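RNA from whole soleus of 7 animals was sequenced with TruSeq libraries, per the labels' protocols. The submitters' processing notes name TopHat2 2.0.10, HTSeq, the mm9 build and DESeq2 1.6.3; the annotation, the strand setting and any filters are not named there. The deposited table holds raw counts per gene symbol, which were used here. It also holds the authors' size-factor normalised counts (a signal), and their DESeq2 log2 fold changes, Wald statistic (a score) and p-values, per the file headers. From the authors' comparison only adjusted p-values and signs were read.

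Counts were tested with edgeR 4.0.16 in R 4.3.3 (TMM scaling, quasi-likelihood, group only) over all 14033 genes with at least 0.567 CPM in 3 libraries (filterByExpr, minimum count 10), with Benjamini-Hochberg adjustment and a threshold of 0.05. A count of 3, the floor, equals 0.128 to 0.187 CPM. DESeq2 1.42.0 and limma-voom 3.58.1 were alternatives, beside other scaling, filters, a replicate block and leaving out each library. The fit was tested on simulated data. The titles name 7 animals, and replicates are taken as separate animals. The library pair with the closest counts still differed by a chi-square of 15.8 per degree of freedom.

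Collagen genes were found by symbol and put into 4 classes. Values in every library are given for the called genes, the 3 most abundant of each class and those with an adjusted p of 0.05 to 0.10, and called members of each pathway list are named. The collagen genes, the classes and the lists of other genes were chosen with earlier results of these data known.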

Additional observations from a re-analysis of the deposited data

Results flagged for a closer look

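Within the 4 libraries labelled mdx, 48 values were checked for a library far from the others, and 6 had one. Chance flags about 1 in 20 independent values. The values here share the same 4 libraries, so the 6 flagged values cannot be set against that rate. In 5 of them mdx replicate 3 was the low library. Col1a2 was at 534 CPM there, against 941 to 986 CPM in the other mdx libraries. Col6a1 was at 166 CPM, against 231 to 246 CPM, and Col16a1 at 14.1 CPM, against 23 to 23.6 CPM. The cartilage collagen Col2a1 was at 0.498 CPM, against 1.97 to 2.59 CPM, and Col28a1 at 0.436 CPM, against 1.14 to 1.36 CPM. Col22a1 was high in mdx replicate 1, at 67.5 CPM, against 49.5 to 50.1 CPM in the others. Without mdx replicate 3, 11 collagen genes were called higher in mdx/Runx1f/f, and Col8a1 was not.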

How the results depend on the processing

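At this depth 7 of the 42 collagen genes, with 0 to 15 counts in a library, fell under the filter and were not tested. All 12 called collagen genes were also called by DESeq2 and limma-voom, and their log2 fold change was positive in every alternative run. In each of the 12 the libraries labelled mdx/Runx1f/f lay wholly above those labelled mdx. That sign was therefore largely set in advance and says little of stability. Collagen genes called higher numbered 7 to 13 when a library was left out (fibrillar 3 to 6, network 3 to 4, associated 1 to 3, basement membrane 0 to 1), and the ratio of collagen shares was 2.11 to 2.55. Over all genes the left-out fits gave 173 to 641 higher and 17 to 209 lower, against 715 and 260 with all libraries, and 9 to 17 genes of the 4 pathway lists. DESeq2 called 1491 higher and 905 lower, and 27 pathway genes.

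The numbers in the titles are not stated to pair animals, and mdx replicate 4 has no partner. Deviations of same-numbered libraries correlated at -0.01, 0.24 and 0.28, and those of differently numbered libraries at -0.46 to 0.51. With so few libraries these values cannot decide whether the numbers pair animals. With the replicate block, 240 genes were higher and 80 lower over all, with 9 collagen genes, 1 associated gene and 11 pathway genes; Col1a1, Col1a2, Col8a1 and Col16a1 were not called and Col5a3 was. With the series of animal numbers as a covariate, 1246 were higher and 582 lower. Animals 358 to 363 alone gave 0 higher and 0 lower over all genes (1658 and 1011 at an unadjusted p below 0.05), and so 0 collagen genes, 0 in each class and 0 pathway genes. Animals 373 to 375 alone, where the lone library is assumed to vary like the others, gave 1361 higher and 440 lower, with 8 fibrillar, 4 associated and 29 pathway genes, and 1 collagen gene lower, Col7a1. No stability can be read from the ratio tests: their smallest p is 0.05 or 0.0667 with a library left out and 0.25 with the block, so 0 could pass. Leaving out genes below the filter's level in the mdx libraries, chosen after seeing the data, 12 collagen genes and 17 pathway genes were higher, and 654 of all genes.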

Other observations

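Close to the threshold in the pathway lists, the crosslinking enzyme gene Lox had a log2 fold change of 1.89 (adjusted p = 0.0540 by edgeR), and the collagenase gene Mmp14 one of 1.30 (adjusted p = 0.0504 by edgeR). The collagenase gene Mmp13 was at 2.08, 2.26 and 35.7 CPM in the libraries labelled mdx/Runx1f/f, against 0 to 0.731 CPM in those labelled mdx, and was not called (adjusted p = 0.0536 by edgeR). The prolyl 4-hydroxylase gene P4ha1 had a log2 fold change of 0.53 (adjusted p = 0.0576 by edgeR).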
